A study of Labrus bergylta with 77 samples.

Results

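Complement genes were followed in whole larvae of the ballan wrasse (Labrus bergylta), a marine fish, from before the first meal to the juvenile. The members are the rows of the deposited expression table whose gene name equals 1 of 31 complement names, upper or lower case, with or without a copy letter a or b. The rule uses names and no measured value, and it found 26 of 29932 rows for 20 of the 31 names, with C4 and C4A sharing 1 row. No row was matched to C1S, C1QA, C1QB, C4B, C8G, MASP2, C4BPA, CFHR2, C3AR1, CD46 or CD55. Rows that share a name (4 for C3, and 2 each for C1QC, CFD, C7 and CD59) are told apart here by their identifiers, and how reads were divided between such copies rests on the authors' quantification.

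The study measured messenger RNA in 77 pools of larvae staged by length. At BW0, 5 pools were taken from incubators at 4 days post hatch (dph), unfed and 4.0 mm long. Larvae moved to tanks at 4 dph were then fed either a control diet of rotifers and Artemia (tanks B6, B8 and B10) or zooplankton (tanks B5, B7 and B9), with 2 pools per tank at each of 6 fed stages. Control and plankton larvae were both sampled at 9 dph (BW2, 4.1 to 4.5 mm), at 16 and 18 dph (BW3), at 26 and 28 dph (BW4), at 36 and 41 dph (BW5, 10.1 to 10.6 mm), at 58 to 59 dph (BW6) and at 79 to 80 dph (BW7, 26.4 to 27.9 mm). At BW3 and BW4 the plankton larvae were the older ones, so age and diet cannot be told apart at these stages. Dry feed began at 40 dph and fully replaced live feed at 56 dph, so at BW5 the plankton larvae had met dry feed and the control larvae had not, and age, dry feed and early diet cannot be told apart there. The labels give no strain or genotype for any group. The tank, not the pool, carried the diet, so every diet comparison is between tanks (3 against 3). Comparisons of fed stages average both diets over the same 6 tanks, and those with BW0 set its 5 pools against the 6 tanks. Nothing in the labels ties a tank to separate parents. The p-values therefore rest on the spread between these tanks and between the BW0 pools, within stage and diet groups and taken over all groups.

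Levels are in TPM (transcript abundance scaled per library and corrected for transcript length, so that genes can be set beside each other). Differences are of mean log2(TPM + 1), given with their standard error, and they understate the change of rows near 0. A difference was called, and is written as a rise or a fall, at a Benjamini-Hochberg adjusted p under 0.05 in limma, adjusted over all 22028 genes tested in that comparison. All 26 complement rows passed the filter on low values. Because TPM carries no read depth, depth is unknown here. Between 14958 and 19641 genes reached 1 TPM in a pool. Across the whole profile, 9 of the 77 pools correlated better with pools of another group than with their own. They are 1 BW0 pool, 1 pool each of plankton tank B5 and control tank B8 at BW2, and pools of plankton tank B9 at BW3, BW5 and BW6 and of plankton tank B7 at BW7. Those of BW3, BW5, BW6 and BW7 were plankton pools closest to the control pools of their own stage. Leaving them out selects on the diet comparison, so diet counts without them are no check on it. The same run removes plankton tank B9 at BW5 and plankton tank B7 at BW7 whole. Counts that change without these 9 pools are given beside the results.

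Complement is a cascade of blood proteins that marks microbes for uptake and lyses them. Recognition proteins (C1q with C1R, or lectins with MASP1) switch on C2 and C4, an alternative loop of CFB, CFD and CFP works without them, and both routes cut C3 and C5. C5 starts the assembly of C6, C7, C8 and C9 into a pore in the target membrane, while CFI, CD59 and clusterin (CLU) restrain the cascade and C5AR1 senses the fragment released from C5. In vertebrates the liver makes most of these proteins, C1q comes mainly from macrophages, and fish carry several copies of C3.

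Transcripts of the 26 complement rows were low at first feeding and higher in the juvenile. Summed over the 26 rows, the lowest, median and highest of the 6 tanks were 107.7, 115.1 and 169.6 TPM at BW2 and 495.5, 546.0 and 707.5 TPM at BW7. A list of 22 other complement pathway rows, outside the member names, was higher at BW2. It also holds rows that are not components of the cascade, Cd93, ITGAM and C1qbp among them. Its sum is therefore not a level of cascade components alone. The sums of this list were 171.2, 269.2 and 343.2 TPM at BW2 and 453.4, 507.7 and 613.0 TPM at BW7. Between these stages 25 complement rows rose and 1 fell, out of 26. Over all tested genes 34.7% rose and 38.0% fell, and the median difference was 2.20 for the complement rows and -0.03 for all genes. At BW2, 7 rows had a mean under 1 TPM and 3 reached 10 TPM, whereas 19 reached 10 TPM at BW7. Of the 26 rows, 19 had their lowest fed mean at BW2, and the highest mean fell at BW5 for 6 rows, at BW6 for 8 and at BW7 for 12. In pools of whole larvae, more cells of a type and more RNA per cell cannot be told apart. The same comparison counted 20 higher and 6 lower of 27 tested hepatocyte marker rows, and 14 and 2 of 19 macrophage rows. It counted 10 and 0 of 10 neutrophil rows, and 21 and 1 of 23 coagulation (blood clotting) rows. Of the 10 macrophage names sought, 6 matched a row. Of the 31 macrophage rows found, tested or not, 18 matched the single name MRC1.

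The largest differences between BW2 and BW7 were those of C1qc, C1R, CD59 (LABE_00068989) and C1QC, and 3 of these are recognition rows. C1qc (LABE_00051406), a chain of the C1q recognition molecule, had a lowest, median and highest tank value of 0.0453, 0.097 and 0.311 TPM at BW2, of 1.15, 3.07 and 12.999 TPM at BW5, and of 17.2, 19.1 and 23.2 TPM at BW7. The second row of that chain, C1QC (LABE_00051407), went from 1.13, 2.01 and 2.18 TPM to 35.1, 36.9 and 42.6 TPM between BW2 and BW7, and no tank of BW7 overlapped any tank of BW2 in either row. Neither had a called step before BW4. Both rose, by 1.53 ± 0.22 (adjusted p = 1.09e-06) and 1.57 ± 0.22 (adjusted p = 7.92e-07) from BW4 to BW5, and again by 1.55 ± 0.22 (adjusted p = 9.22e-07) and 1.28 ± 0.22 (adjusted p = 1.90e-05) to BW6 in limma. Over BW2 to BW7 the differences were 4.20 ± 0.22 and 3.79 ± 0.22. Control tank B10 stood apart at BW5, with 12.999 and 32.6 TPM where control tanks B6 and B8 had 3.59 and 2.23 TPM of C1qc and 8.36 and 7.81 TPM of C1QC. In that tank the macrophage rows summed to 104.5 TPM against 73.6 and 59.2 TPM, and the neutrophil rows to 136.4 TPM against 67.1 and 48.2 TPM. Plankton tanks B5, B7 and B9 had macrophage sums of 82.55, 88.7 and 60.7 TPM and neutrophil sums of 76.4, 100.9 and 38.4 TPM. Their C1QC was at 8.38, 9.79 and 4.30 TPM. The part of these marker rows in the result was not tested.

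C1R, the protease that C1q activates, was at 0.252, 0.452 and 0.723 TPM (lowest, median and highest tank) at BW2 and at 19.6, 25.2 and 38.9 TPM at BW7. It rose by 1.72 ± 0.16 from BW4 to BW5 (adjusted p = 6.09e-10) and by 4.19 ± 0.16 from BW2 to BW7 (adjusted p = 9.17e-21, limma). MASP1 (Masp1 in the table), a protease of the lectin route, had another course. Its 5 BW0 pools held 14.6, 15.2, 15.4, 15.8 and 17.2 TPM, above every tank of BW2 to BW6 (5.11 to 9.28 TPM). It fell by 1.05 ± 0.09 from BW0 to BW2 (adjusted p = 7.87e-10), none of the 4 steps between BW2 and BW6 was called, and it rose by 0.84 ± 0.09 from BW6 to BW7 (adjusted p = 1.01e-08), where tanks held 10.2 to 15.7 TPM.

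Among the rows that form and feed the C3 convertases, all 10 rose from BW2 to BW7, with a median difference of 2.28. C3 is the protein on which all routes meet, and its 4 copies differed in level. The copy c3 (LABE_00060404) held 66.7%, 56.7%, 59.2%, 57.6%, 37.2% and 55.5% of the summed C3 TPM on average over 6 tanks at BW2, BW3, BW4, BW5, BW6 and BW7, against 26.7% in the 5 BW0 pools. In those unfed pools C3 (LABE_00052983) held 66.1% ± 2.1 (SD, n = 5), and it held 26.7% ± 7.1 (SD, n = 6 tanks) at BW2. The unfed and fed ranges did not overlap (63.5% to 69.3% and 16.5% to 37.3%). As levels, the 5 BW0 pools held 1.17, 2.42, 2.15, 1.48 and 2.43 TPM of c3 (LABE_00060404), the 6 tanks at BW2 held 2.51 to 11.3 TPM, and those at BW5 held 28.7, 65.1 and 77.8 TPM as lowest, median and highest. BW0 was extracted with another reagent (TRIzol, where the other stages had QIAzol), so stage, feeding and reagent cannot be told apart in any comparison with BW0.

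That copy of C3 then dropped and returned. From BW5 to BW6 c3 (LABE_00060404) fell by 1.48 ± 0.24 (adjusted p = 9.59e-06) to 11.7, 18.9 and 28.1 TPM, and from BW6 to BW7 it rose by 1.21 ± 0.24 (adjusted p = 0.000180, limma) to 27.9, 43.5 and 68.1 TPM. C3 (LABE_00052985) also fell from BW5 to BW6, by 0.70 ± 0.20 (adjusted p = 0.00469), after a rise of 1.57 ± 0.20 from BW4 to BW5 (adjusted p = 1.54e-07). The 2 remaining copies were not called at that step. It averages both diets. From BW5 to BW6 the mean of c3 (LABE_00060404) went from 70.7 to 13.3 TPM in control tanks and from 43.2 to 26.0 TPM in plankton tanks. That of C3 (LABE_00052985) went from 14.2 to 6.67 TPM in control tanks and from 11.5 to 9.56 TPM in plankton tanks. The copy c3 (LABE_00060411) rose by 3.09 ± 0.17 from BW2 to BW7, from 0.0853 to 0.932 TPM over the tanks to 8.03 to 14.1 TPM.

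The other convertase rows showed no such dip that was called, with both diets averaged. C2, the protease subunit of the classical convertase, rose by 1.46 ± 0.23 from BW4 to BW5 (adjusted p = 4.76e-06) and by 2.73 ± 0.23 over BW2 to BW7, to 17.3, 27.2 and 51.2 TPM. In control tanks C2 did dip, from 35.8 to 40.0 TPM at BW5 to 13.6 to 17.7 TPM at BW6, and held 25.4 to 30.0 TPM at BW7. In plankton tanks B5, B7 and B9, C2 went from 27.4, 12.7 and 15.008 TPM at BW5 to 15.8, 23.2 and 27.2 TPM at BW6. The dip of C2 was not tested within a diet. C4A, its partner, rose by 0.83 ± 0.22 from BW0 to BW2 (adjusted p = 0.00195), had no called step between BW2 and BW5, where tanks held 0.654, 1.19 and 3.69 TPM, and rose by 1.47 ± 0.21 to BW6 (adjusted p = 1.77e-06), to 2.97, 5.02 and 13.3 TPM. The first of these rises averages both diets. The C4A mean was 0.461 TPM at BW0, and at BW2 it was 0.655 TPM in control and 3.45 TPM in plankton tanks. CFB, the protease subunit of the alternative convertase, was under 1 TPM in every tank of BW2 and BW3 and at 3.48, 5.78 and 10.6 TPM at BW7, with a last step of 0.88 ± 0.18 (adjusted p = 0.000277, limma). CFD, the protease that cuts CFB, was abundant: CFD (LABE_00034854) held 33.0, 47.2 and 54.9 TPM at BW7 and CFD (LABE_00071930) held 25.8, 34.1 and 41.3 TPM. Both CFD rows had their highest mean at BW6 and rose at each of the steps BW4 to BW5 and BW5 to BW6, by 0.75 to 0.90. CFP, which stabilises the alternative convertase, was highest at BW6 as well, at 3.33, 5.82 and 8.75 TPM.

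**Figure D1:**
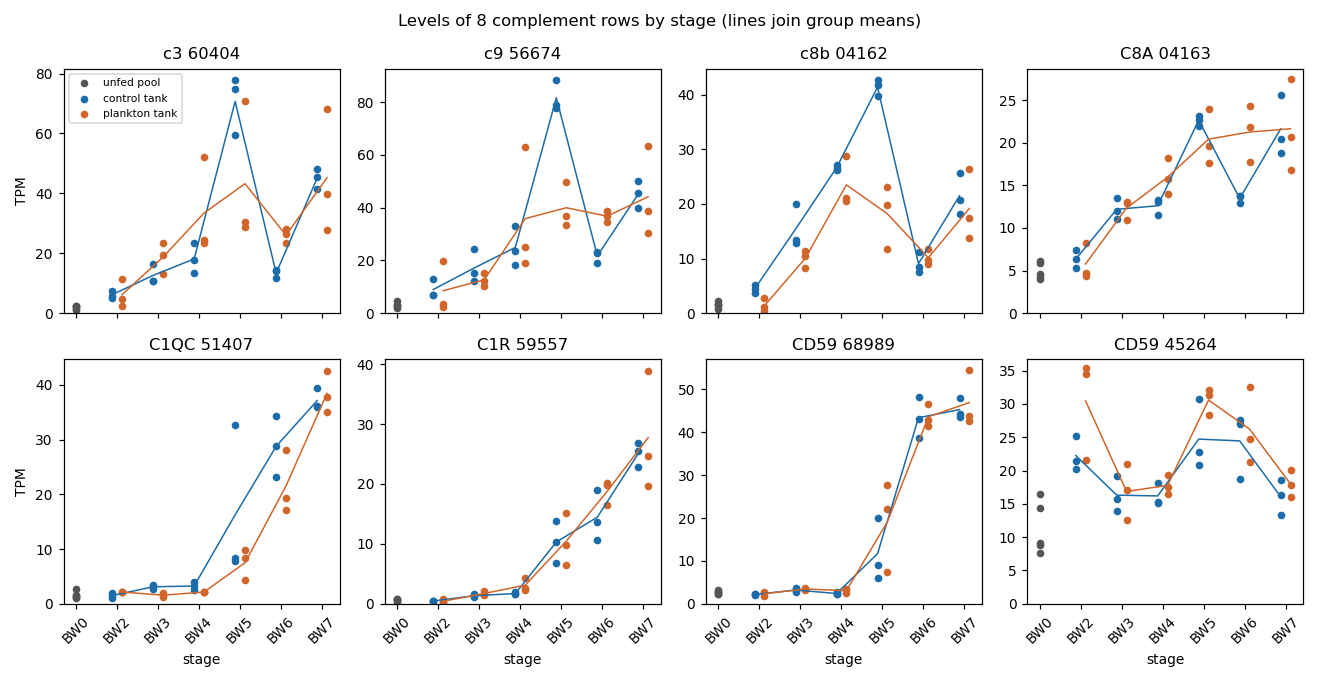
TPM of 8 complement rows (vertical axis, from 0) against stage (horizontal axis), with 1 point per unfed pool or tank and lines through the control and plankton means. The c3, c9 and c8b means peak at BW4, BW5 or (c9 and c3 with plankton) BW7, and all are lower at BW6 than at BW5, C1QC, C1R and CD59 (LABE_00068989) climb from BW5, and CD59 (LABE_00045264) has no such climb.

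The 7 rows of the membrane pore and its starter C5 all rose from BW2 to BW7 (median difference 2.10). C9 (c9 in the table), which forms the ring of the pore, held 2.22, 6.97 and 19.9 TPM at BW2 as lowest, median and highest tank, 33.4, 63.8 and 88.4 TPM at BW5, 19.1, 29.0 and 38.6 TPM at BW6 and 30.2, 42.7 and 63.5 TPM at BW7. It fell by 1.01 ± 0.29 from BW5 to BW6 (adjusted p = 0.00577, limma), and its change from BW6 to BW7 was not called. The step averages both diets. From BW5 to BW6 the c9 mean went from 81.7 to 21.7 TPM in control tanks and from 40.0 to 36.8 TPM in plankton tanks. The row c8b, a chain of C8, rose by 1.96 ± 0.19 from BW2 to BW3 (adjusted p = 9.63e-10) and by 0.98 ± 0.19 to BW4 (adjusted p = 0.000197), fell by 1.48 ± 0.19 from BW5 to BW6 (adjusted p = 1.83e-07) and rose by 1.002 ± 0.19 to BW7 (adjusted p = 8.84e-05). Its tanks ran from 0.308 to 5.18 TPM at BW2, from 11.7 to 42.7 TPM at BW5, from 7.57 to 11.7 TPM at BW6 and from 13.7 to 26.4 TPM at BW7. From BW5 to BW6 its mean went from 41.4 to 9.07 TPM in control tanks and from 18.2 to 10.2 TPM in plankton tanks. C8A, another chain of the same C8 complex, moved less: it held 17.6, 22.4 and 24.0 TPM at BW5 and 12.9, 15.7 and 24.3 TPM at BW6, a fall of 0.34 ± 0.12 (adjusted p = 0.0291). That call was lost in 5 alternative settings, among them size factors (-0.25, adjusted p = 0.0997). From BW5 to BW6 the C8A mean went from 22.6 to 13.5 TPM in control tanks and from 20.4 to 21.3 TPM in plankton tanks.

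The 2 rows named C7, which anchors the pore in the membrane, did not share a course. C7 (LABE_00040698) rose at every step from BW0 on except the last, with its largest step of 1.22 ± 0.08 from BW3 to BW4 (adjusted p = 7.72e-13). Its tanks held 0.117 to 0.376 TPM at BW2 and 8.74 to 11.5 TPM at BW7, a difference of 3.19 ± 0.08. C7 (LABE_00020447) was already at 1.27, 3.02 and 12.992 TPM at BW2, fell by 0.78 ± 0.21 to BW3 (adjusted p = 0.00165), rose to 6.63, 13.4 and 26.5 TPM at BW6, and fell by 0.60 ± 0.21 to BW7 (adjusted p = 0.0255, limma). These falls average unlike diet groups. From BW2 to BW3 the mean went from 1.83 to 1.31 TPM in control tanks and from 8.62 to 2.46 TPM in plankton tanks. From BW6 to BW7 it went from 10.2 to 8.42 TPM in control tanks and from 17.8 to 7.91 TPM in plankton tanks. The call of the fall to BW7 was lost in 4 alternative settings, among them size factors (-0.47, adjusted p = 0.0588, limma). C6, which binds ahead of C7, rose by 1.19 ± 0.13 from BW4 to BW5 (adjusted p = 1.11e-08) and fell by 0.37 ± 0.13 from BW6 to BW7 (adjusted p = 0.0254). C5 went from 1.63, 2.63 and 3.94 TPM at BW2 to 10.4, 14.0 and 22.6 TPM at BW7.

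Of the regulators, 3 rows rose from BW2 to BW7 and 1 fell. CD59 is a membrane protein that blocks the pore on the body's own cells. CD59 (LABE_00068989) held 1.89 to 2.69 TPM over the tanks of BW2, 2.20 to 3.41 TPM at BW4, 6.01, 14.5 and 27.6 TPM at BW5 and 42.6, 44.0 and 54.4 TPM at BW7, the highest mean of the 26 rows there. Its steps were 1.94 ± 0.20 from BW4 to BW5 (adjusted p = 2.78e-09) and 1.63 ± 0.20 from BW5 to BW6 (adjusted p = 7.36e-08). The other row, CD59 (LABE_00045264), had the highest mean of the 26 rows at BW2, with tanks at 20.3, 23.4 and 35.3 TPM, and held 13.3, 17.1 and 20.1 TPM at BW7, a fall of 0.57 ± 0.16 (adjusted p = 0.00193, limma). It rose by 1.15 ± 0.17 from BW0 to BW2 and fell by 0.60 ± 0.16 to BW3. CFI (Cfi in the table), the protease that inactivates C3b, rose by 1.42 ± 0.17 from BW4 to BW5 (adjusted p = 1.02e-07), from 6.79 to 14.8 TPM to 16.8 to 41.6 TPM. CLU, a secreted chaperone that also binds the forming pore, fell by 0.29 ± 0.08 from BW3 to BW4 and rose by 0.84 ± 0.08 from BW5 to BW6 (adjusted p = 1.79e-09), where tanks held 37.2 to 48.1 TPM.

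C5AR1 (c5ar1), the receptor carried by phagocytes, stayed the lowest but 1 at BW7, with 3.24, 4.15 and 5.35 TPM. It rose by 0.93 ± 0.18 from BW2 to BW7 (adjusted p = 2.97e-05, limma). At BW5 its highest tank was again control tank B10, at 5.56 TPM against 1.95 and 2.53 TPM in tanks B6 and B8.

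By step, the rise of the complement rows was most general between BW4 and BW5. There 22 of the 26 rows rose and 0 fell, against 10.6% and 39.1% of all tested genes, with a median of 0.88 for the complement rows and -0.22 for all genes. The 4 rows without a call were Masp1, C4A, c8b and c5ar1. In the same step 16 of 27 hepatocyte rows rose and 1 fell, as did 16 and 0 of 23 coagulation rows, 11 and 2 of 22 other complement pathway rows, and 9 and 1 of 19 macrophage rows. The summed complement TPM was 192.0, 217.3 and 335.1 at BW4 and 299.5, 481.8 and 618.2 at BW5, and the ranges overlapped because plankton tank B7 was high at BW4 and plankton tank B9 was low at BW5.

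From BW5 to BW6, the step that holds the change to dry feed alone, 14 rows rose and 5 fell, against 18.1% and 24.4% of all genes. The rows that fell were c3 (LABE_00060404), c8b, c9, C3 (LABE_00052985) and C8A, and the largest rises were those of CD59 (LABE_00068989), C1qc, C4A and C1QC. The step averages both diets. The falls of c9 and C8A came mainly from the control tanks. In the other rows that fell, the means dropped in both diets and by more in control tanks. These means are given above. Over this step the hepatocyte rows had 7 higher and 8 lower of 27, with a summed level of 6144 to 9718 TPM over the tanks at BW5 and of 3008 to 6742 TPM at BW6, while the neutrophil rows had 10 higher and 0 lower of 10, and the macrophage rows 11 and 1 of 19. Their part in the result was not tested. With size factors 14 rows rose and 4 fell, C8A not among them, and without the 9 pools that stood apart 10 rose and 6 fell. From BW6 to BW7, 10 rows rose and 3 fell (11.6% and 25.4% of all genes). The largest rises were in c3 (LABE_00060404), c8b, CFB and Masp1, and the falls in C7 (LABE_00020447), CD59 (LABE_00045264) and C6. Scaled by size factors instead, 13 rows rose and 0 fell at this last step, and without the 9 pools that stood apart 12 rose and 4 fell.

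**Figure D2:**
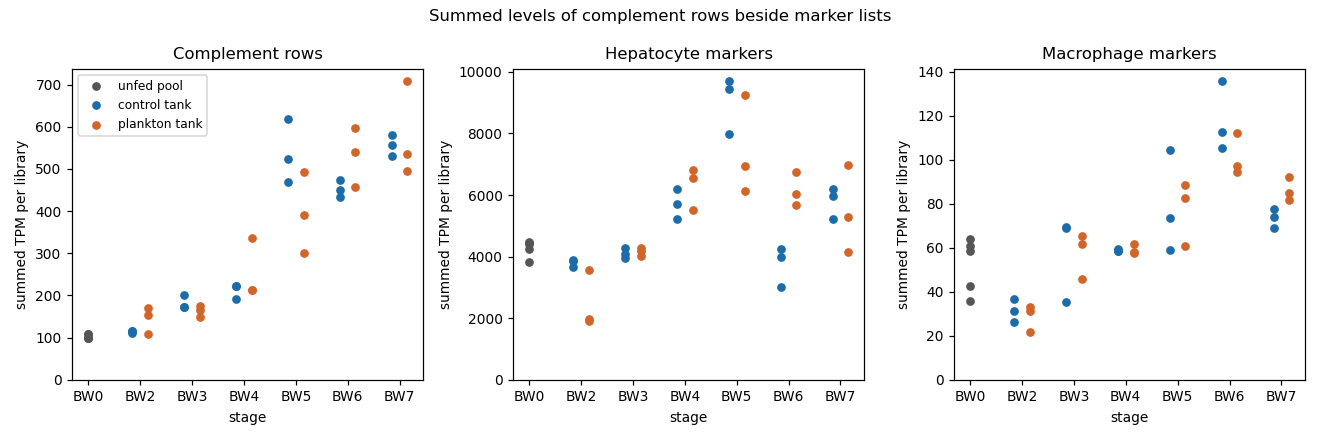
Summed TPM per library (vertical axes, from 0) of the 26 complement rows, the 31 hepatocyte marker rows and the 31 macrophage marker rows against stage, with 1 point per unfed pool or tank. The complement sum is highest at BW7, the hepatocyte sum peaks at BW5, and the macrophage sum peaks at BW6.

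At the earlier steps the counts moved with the scaling. Shares of all genes, here and at the other steps, are those of the fit to all pools without size factors. Scaling by size factors moved the median difference of all genes from -0.37 to 0.00 at BW0 to BW2 and from 0.42 to 0.02 at BW2 to BW3. From BW0 to BW2, 8 rows rose and 4 fell, against 3.80% and 59.4% of all genes. With size factors the split was 13 and 1. The run without the 9 pools whose titles are written with spaces leaves out 4 of the 5 BW0 pools. The BW0 pool that remains correlated better with BW2 control pools (mean 0.954) than with its own group (mean 0.949). No count is therefore given for that run, and whether the calls of this step hold without the spaced titles cannot be told. Without the 9 pools that stood apart, 7 rose and 5 fell. The largest rises were c3 (LABE_00060404) at 1.19 ± 0.25, CD59 (LABE_00045264), C7 (LABE_00020447) at 1.04 ± 0.22 and c9 at 0.90 ± 0.31, and the falls were Masp1, C3 (LABE_00052983) at -0.79 ± 0.19, C5 at -0.62 ± 0.17 and Cfi at -0.58 ± 0.18. The rise of C7 (LABE_00020447) was mostly in plankton tanks, with means of 1.34 TPM at BW0 and of 1.83 TPM in control and 8.62 TPM in plankton tanks at BW2. From BW2 to BW3, 13 rows rose and 2 fell, against 63.3% and 5.45% of all genes, and the split was 8 and 6 with size factors and 17 and 3 without the pools that stood apart. The largest rises were c8b, C3 (LABE_00052983) at 1.38 ± 0.18, c3 (LABE_00060404) at 1.21 ± 0.24 and C3 (LABE_00052985) at 1.08 ± 0.20. From BW3 to BW4, 9 rows rose and 1 fell, against 6.26% and 22.8% of all genes (12 and 0 with size factors). C7 (LABE_00040698), c8b, c9 at 0.94 ± 0.29 and C3 (LABE_00052985) at 0.82 ± 0.20 rose most, and CLU fell.

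Most complement calls for diet came at BW2. At 9 dph, 3 rows were higher and 1 was lower in plankton than in control tanks, where 9.49% of all tested genes were higher and 19.7% lower. Counting both directions, the share of complement rows called was not above that of all genes. C7 (LABE_00020447) held 1.78, 1.27 and 2.45 TPM in control tanks B6, B8 and B10 and 9.27, 3.59 and 12.992 TPM in plankton tanks B5, B7 and B9. All plankton tanks were above all control tanks, by 1.68 ± 0.30 (adjusted p = 7.89e-05, limma). C4A held 0.779, 0.462 and 0.723 TPM in the control tanks and 3.20, 1.88 and 5.28 TPM in the plankton tanks, again without overlap, a difference of 1.34 ± 0.30 (adjusted p = 0.00105). CFD (LABE_00034854) held 11.2, 5.82 and 10.1 TPM against 17.2, 14.2 and 25.1 TPM, a difference of 0.98 ± 0.23 (adjusted p = 0.00127). The row c8b went the other way, at 4.34, 5.18 and 3.72 TPM in control and 2.71, 0.308 and 1.04 TPM in plankton tanks, a difference of -1.34 ± 0.27 (adjusted p = 0.000285).

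Plankton tanks were not alike at BW2. Tank B5 held 19.9 TPM of c9, 11.9 TPM of Cfi and 11.3 TPM of c3 (LABE_00060404), above every control tank, while tanks B7 and B9 held 2.22 and 3.42 TPM of c9, below every control tank. The hepatocyte rows summed to 3569 TPM in B5 and to 1893 and 1967 TPM in B7 and B9, against 3658 to 3886 TPM in the control tanks, and 13 of 27 were lower and 0 higher with plankton. The list's smallest p-values were those of TTR (-1.91 ± 0.25), which carries thyroid hormone, FETUB (LABE_00016023, -1.40 ± 0.25) and fabp10a (-1.21 ± 0.24), a liver fatty acid binder. Of the other complement pathway rows 3 were higher and 5 lower, with Cd93 (LABE_00049374) at -1.47 ± 0.16, ITGAM at 1.004 ± 0.20 and C1qbp at -0.98 ± 0.18. Their part in the complement differences was not tested. With the stage fitted alone, C4A kept its call and the other 3 rows did not (adjusted p = 0.0629 for C7, 0.0848 for c8b and 0.0968 for CFD). Without tank B5, 7 complement rows were called, a count that was not set beside the share of all genes in that fit. Without the 9 pools that stood apart 4 rows were higher and 2 lower, and all 4 calls named here were among them.

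**Figure D3:**
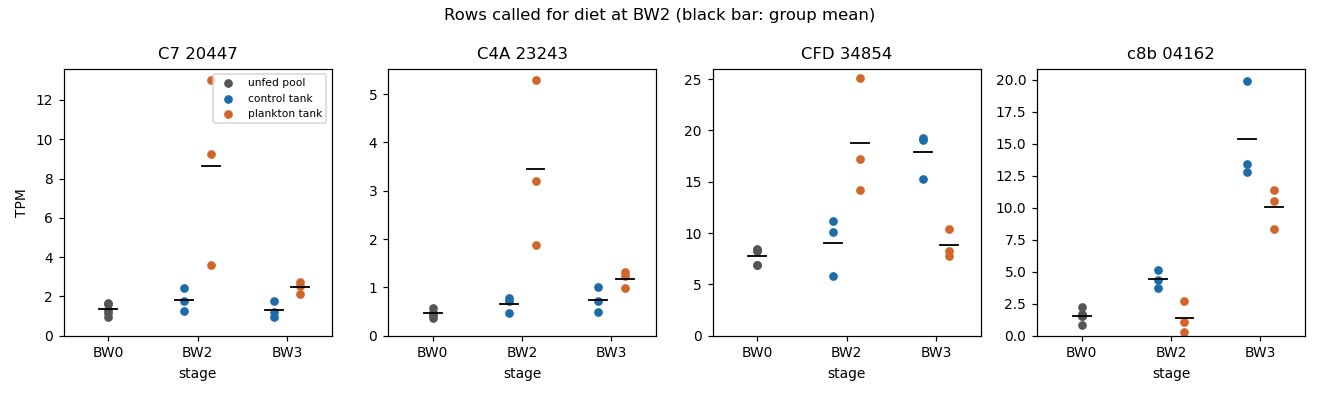
TPM (vertical axes, from 0) at BW0, BW2 and BW3 of the 4 rows called for diet at BW2, with 1 point per unfed pool or tank and a black bar at each group mean. At BW2 plankton tanks lie above control tanks in C7 (LABE_00020447), C4A and CFD (LABE_00034854) and below them in c8b, and at BW3 CFD (LABE_00034854) has the opposite order.

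By BW3 the order of the tanks in CFD had turned round. Control larvae were then at 16 dph and plankton larvae at 18 dph, so age and diet cannot be told apart there. CFD (LABE_00034854) held 19.3, 15.3 and 19.0 TPM in control tanks B6, B8 and B10 and 10.4, 8.24 and 7.76 TPM in plankton tanks B5, B7 and B9. CFD (LABE_00071930) held 8.30, 13.9 and 10.6 TPM against 4.98, 3.34 and 3.90 TPM. In both rows every plankton tank was below every control tank, yet neither was called at BW3 itself (differences of -0.94 ± 0.23 with adjusted p = 0.0648 and -1.23 ± 0.36 with adjusted p = 0.235 in limma). The change of the diet difference from BW2 to BW3, a contrast chosen after the values were seen, was called for both, at -1.92 ± 0.32 (adjusted p = 0.000132) and -1.998 ± 0.51 (adjusted p = 0.00576), and for C6, at -0.82 ± 0.26 (adjusted p = 0.0237). These 3 of 26 rows were lower and 0 higher, against 7.02% and 13.9% of all genes, and C6 lost its call without tank B8 or B9 (adjusted p = 0.0909 and 0.117). At BW3 the neutrophil rows summed to 98.6 to 141.3 TPM in control tanks and 29.6 to 77.5 TPM in plankton tanks. Row by row, 0 of 10 were called higher and 1 lower with plankton, 5 differences were positive, and the median was -0.12. The part of the neutrophil rows in the CFD difference was not tested.

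At BW3 and BW4 no complement row was called for diet in limma. At BW3, 6 rows had an unadjusted p under 0.05, as did 6.21% of all genes, and 0.141% of all genes were called higher and 0.141% lower. Without the pools that stood apart, 1 row was called lower. At BW4, 7 rows did, as did 6.76% of all genes, with 0.431% and 0.236% of all genes called. The smallest p at BW4 belonged to C7 (LABE_00040698), at 5.35, 4.95 and 3.97 TPM in control and 2.75, 3.74 and 3.22 TPM in plankton tanks, a difference of -0.44 ± 0.12 (adjusted p = 0.0713). Plankton tank B7 had the highest value at BW4 in c3 (LABE_00060404), at 52.3 TPM, in c9, at 63.1 TPM, and in C2, at 19.1 TPM, against 13.3 to 24.5, 18.2 to 32.9 and 6.09 to 9.50 TPM in the other 5 tanks. Of the exocrine pancreas rows, 10 of 12 were higher with plankton.

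At BW5 the row c8b was lower with plankton, the only complement call there (1 lower and 0 higher of 26, against 0.141% and 0.159% of all genes). Its levels were 39.8, 42.7 and 41.7 TPM in control tanks B6, B8 and B10 and 23.1, 11.7 and 19.8 TPM in plankton tanks B5, B7 and B9. The control tanks lay close together and above all plankton tanks, and the difference was -1.19 ± 0.27 (adjusted p = 0.0377, limma). The call was lost in 7 of 13 alternative settings, with adjusted p from 0.0184 to 0.467 and a difference from -1.38 to -0.92. Without the pools that stood apart it stood beside 1 row that was called higher. That run leaves out plankton tank B9 at BW5, whose pools were closest to the control pools, so it gives these calls no support. The pore protein c9 had 88.4, 79.0 and 77.7 TPM in control and 49.9, 36.7 and 33.4 TPM in plankton tanks, also without overlap, at a difference of -1.05 ± 0.41 that was not called (adjusted p = 0.701). C2 was at 39.2, 35.8 and 40.0 TPM against 27.4, 12.7 and 15.008 TPM (-1.13 ± 0.32, adjusted p = 0.210). For c3 (LABE_00060404) the values were 77.8, 59.4 and 74.9 TPM against 70.7, 30.3 and 28.7 TPM. Plankton tank B5 fell among the control tanks as a mean of unlike pools, at 38.9 and 102.6 TPM. In all, 11 rows had an unadjusted p under 0.05, as did 4.95% of all genes, and the median of the 26 rows was -0.35 beside 0.03 for all genes. The hepatocyte rows had 0 calls of 27 and 7 with an unadjusted p under 0.05, with sums of 9447, 9718 and 7985 TPM in control tanks and 6951, 6144 and 9264 TPM in plankton tanks. Row by row, 17 of the 27 hepatocyte differences were positive, with a median of 0.11.

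At BW6, when all larvae had eaten dry feed alone since 56 dph, 19 of the 26 differences were positive, where 7 had been positive at BW5. Of all 22028 tested genes, 12464 differences were positive at BW6 and 12605 at BW5. In the marker lists, 26 of 27 hepatocyte, 20 of 23 coagulation and 5 of 19 macrophage differences were positive at BW6. C5 was the only complement call, with 1 higher and 0 lower of 26, against 0.518% and 0.286% of all genes. It held 7.20, 6.06 and 7.21 TPM in control tanks and 12.2, 13.04 and 16.3 TPM in plankton tanks B5, B7 and B9, a difference of 0.95 ± 0.23 without overlap (adjusted p = 0.0399, limma). This call was lost in 7 of 13 alternative settings, with adjusted p from 0.0114 to 0.287, and 2 rows were higher without the pools that stood apart. Uncalled rows without overlap included c9, at 23.3, 19.1 and 22.8 TPM against 34.7, 38.6 and 37.0 TPM (0.77 ± 0.41, adjusted p = 0.691), c3 (LABE_00060404), at 14.4, 13.9 and 11.7 TPM against 23.5, 28.1 and 26.5 TPM (0.94 ± 0.34, adjusted p = 0.301), and C8A, at 13.7, 12.9 and 13.8 TPM against 17.7, 24.3 and 21.8 TPM (0.64 ± 0.18, adjusted p = 0.0859). The share of all genes without overlap was not counted at any stage. The median of the 26 rows was 0.27 and that of all genes 0.03. Medians of the hepatocyte, coagulation and macrophage rows were 0.68, 0.46 and -0.18. Of the 26 rows, 9 had an unadjusted p under 0.05, as did 8.21% of all genes. The hepatocyte rows summed to 3977, 3008 and 4247 TPM in control tanks and 5685, 6742 and 6040 TPM in plankton tanks, with 5 of 27 higher, among them ITIH3 (LABE_00050847, 0.86 ± 0.16), AGXT (0.92 ± 0.19) and AHSG (LABE_00004059, 0.83 ± 0.19). The exocrine pancreas rows had 10 of 12 higher, and the neutrophil rows summed to 182.9 to 203.2 TPM in control tanks and 309.4 to 392.7 TPM in plankton tanks. Row by row the neutrophil list did not follow its sum. Of its 10 rows 0 were called higher and 1 lower, 4 differences were positive, and the median was -0.08. The part of these lists in the complement differences was not tested.

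**Figure D4:**
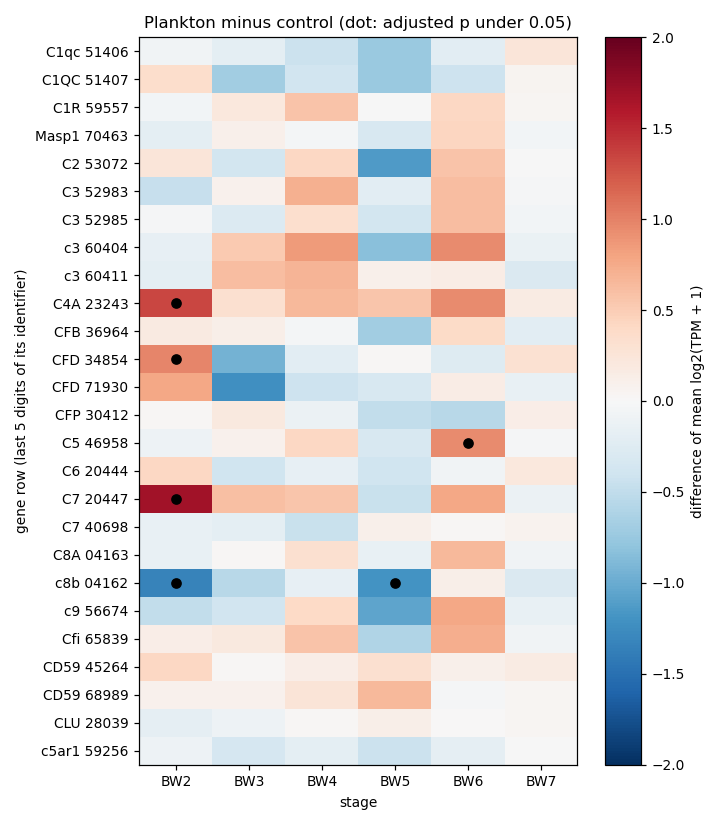
Colour gives the difference of mean log2(TPM + 1), plankton minus control tanks (3 against 3), for each complement row (vertical axis) at each fed stage (horizontal axis), and a dot marks an adjusted p under 0.05. There are 4 dots at BW2, 1 at BW5 and 1 at BW6, and the BW5 column is mostly blue, the BW6 column mostly red and the BW7 column pale.

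The change of the diet difference between BW5 and BW6 was also fitted, after the values were seen. No row was called in limma (0.0363% of all genes were higher and 0.0636% lower). Of the 26 rows, 12 had an unadjusted p under 0.05, as did 4.14% of all genes. The median of the 26 rows was 0.50 beside -0.01 for all genes. The hepatocyte median was 0.61, with 26 of 27 differences positive, and the coagulation median 0.54, with 19 of 23 positive. The macrophage median was -0.10, with 7 of 19 positive. Among the complement rows the smallest p was that of Masp1, at 0.74 ± 0.18 (adjusted p = 0.101), followed by C5, at 1.27 ± 0.33 (adjusted p = 0.176). Both sides of this contrast differ in age at BW5.

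At BW7 diet left no call among the complement rows in limma, and none of the 26 rows had an unadjusted p under 0.05. Over all genes 0.0726% were higher and 0.0136% lower. The median difference of the complement rows was -0.01. Tank means spread widely within the plankton group. Tank B9 held 68.1 TPM of c3 (LABE_00060404), 63.5 TPM of c9 and 51.2 TPM of C2, and B7 held 27.9, 30.2 and 17.3 TPM. The control tanks lay between them at 41.5 to 48.2, 39.8 to 50.1 and 25.4 to 30.0 TPM. The B9 means joined unlike pools, at 45.2 and 91.0 TPM of c3 (LABE_00060404), 44.3 and 82.6 TPM of c9 and 34.0 and 68.4 TPM of C2. For that c3 row the pools of B5 held 56.4 and 22.9 TPM and those of B7 28.1 and 27.7 TPM. The diet difference after the live feed (BW6 and BW7) minus that during it (BW2 to BW5) gave 0 calls of 26 in limma, 4 rows with an unadjusted p under 0.05 (7.88% of all genes) and 0.0999% of all genes higher and 0.0590% lower. In that contrast c8b had the smallest p, at 0.73 ± 0.23 (adjusted p = 0.226).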

How the data were processed

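Per the labels, messenger RNA of pooled whole larvae was enriched with oligo(dT) beads. The deposited table gives TPM per gene and pool, and each of its 77 columns sums to 1000000. Salmon and edgeR are named in the submitters' processing notes, without versions or the role of each. Members, marker lists and contrasts were chosen with earlier results of these data known, and consecutive steps share the libraries of the stage between them.

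Software was R 4.3.3 with limma 3.58.1, statmod 1.5.0 and data.table (version 1.17.8) for the tests, and pandas 2.3.3, numpy 2.4.6 and Python 3.11.15 for the levels. Figures were drawn with matplotlib 3.10.9. The log2(TPM + 1) values were averaged over the 2 pools of a tank and stage, giving 41 libraries with the 5 BW0 pools. The 22028 genes that reached 1 TPM in 3 or more libraries entered 1 fit with an intensity trend over 13 groups, with 28 residual and 3.61 prior degrees of freedom. Named in full are rows called for diet, the 4 largest called rises and falls of each step, the 5 highest rows at BW7 and the C1q rows. Others were named after their values were seen. Non-members are called rows of the lists with the smallest p.

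The same tank was sampled at each stage, but deviations of the same tank at different stages had a mean correlation of 0.0163, and 7.78% of 90 pairs were above 0.1. Alternatives were a pseudocount of 0.1, no filter, size factors, tank as a block, the stage alone, and leaving out tanks, BW0 pools, the 9 pools that stood apart or the 9 with spaced titles.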

Additional observations from a re-analysis of the deposited data

Results flagged for a closer look

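Pools were compared within their group of 5 or 6 for 6 measures, 78 groups in all, and 10 had 1 pool far from the rest. The measures were the rows called for diet at a stage and the sum of the complement rows. Other rows, c9 and c3 (LABE_00060404) among them, were not checked. Chance alone sets a pool apart in about 1 group of 20. C4A was at 7.31 TPM in a BW2 plankton pool of tank B9, where the other pools held 1.73 to 3.75 TPM, and at 0.292 TPM in a BW5 control pool of tank B8 (others 1.01 to 1.31 TPM). CFD (LABE_00034854) was at 11.5 TPM in a BW3 control pool of tank B8 (others 18.1 to 20.4 TPM). C7 (LABE_00020447) was high in 1 pool of 3 groups: 6.01 TPM in BW4 control tank B10 (others 1.99 to 2.98 TPM), 10.9 TPM in BW4 plankton tank B7 (others 3.03 to 5.64 TPM) and 19.9 TPM in BW6 control tank B10 (others 5.18 to 10.5 TPM). The row c8b was at 27.6 TPM in a BW3 control pool of tank B6 (others 12.2 to 13.5 TPM), and C5 at 21.0 TPM in a BW5 plankton pool of tank B5 (others 7.92 to 10.2 TPM). The sum of the complement rows was 244.8 TPM in a BW3 control pool of tank B6 (others 159.3 to 180.0 TPM) and 586.9 TPM in a BW5 plankton pool of tank B5 (others 293.2 to 400.7 TPM).

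The diet difference itself changed between BW2 and BW3 for 3 rows, by limma's test of that change: CFD (LABE_00034854) by -1.92 ± 0.32 (adjusted p = 0.000132), CFD (LABE_00071930) by -1.998 ± 0.51 (adjusted p = 0.00576) and C6 by -0.82 ± 0.26 (adjusted p = 0.0237). This contrast was chosen after the values were seen, and the diets differed in age at BW3. Of all genes 13.9% were higher and 7.02% lower in it. Counting both directions, the complement share was not above theirs, while the share called lower was.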

How the results depend on the processing

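The 26 calls between BW2 and BW7 stood in every alternative run. The counts below were not set beside the share of all genes called in each alternative. The number of rows called for diet at BW2 (4) became 1 with the stage fitted alone and ranged from 4 to 7 as tanks were left out in turn. For diet at BW3 (0) it was 1 without the pools that stood apart and 0 to 1 over left-out tanks, and at BW4 (0) it was 1 with the stage alone. At BW5 (1) it was 0 with a pseudocount of 0.1, 0 without the filter, 0 with the stage alone, 2 without the pools that stood apart and 0 to 2 over left-out tanks. At BW6 (1) it was 0 with a pseudocount of 0.1, 0 with the stage alone, 2 without the pools that stood apart and 0 to 2 over left-out tanks. BW0 to BW2 (12) had 10 to 12 calls over left-out tanks and pools. No count is given for it without the pools with spaced titles, a run that leaves 1 BW0 pool. BW3 to BW4 (10) ranged from 6 (without tank B8) to 12, and BW6 to BW7 (13) had 8 with a pseudocount of 0.1 and ranged from 8 (without B8 or B10) to 13. The change of the diet difference from BW2 to BW3 (3) had 6 calls with a pseudocount of 0.1, 6 with size factors and 2 to 6 over left-out tanks. No named call changed direction in any alternative, and the cause of these changes was not tested. With tank as a replicate block, every diet count was the same and BW6 to BW7 had 14 calls in place of 13; the tank number is a weak pairing here (consensus correlation 0.0364). TPM keeps no depth, so rows under 1 TPM carry an unknown counting error.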

Other observations

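The 2 chains of C8 in the table did not keep a fixed proportion, a comparison made after their values were seen and given without a test. The ratio of c8b to C8A TPM within a library was 0.319 ± 0.085 (SD, n = 5) in the unfed BW0 pools. In control tanks it was 0.704 ± 0.117 at BW2, 1.25 ± 0.20 at BW3, 2.12 ± 0.20 at BW4, 1.83 ± 0.04 at BW5, 0.672 ± 0.124 at BW6 and 0.993 ± 0.029 at BW7 (SD, n = 3). In plankton tanks it was 0.207 ± 0.131 at BW2, 0.813 ± 0.054 at BW3, 1.47 ± 0.14 at BW4, 0.894 ± 0.270 at BW5, 0.482 ± 0.072 at BW6 and 0.874 ± 0.077 at BW7 (SD, n = 3). From BW2 to BW6 every plankton tank was below every control tank of its stage, and at BW7 the highest plankton and the lowest control tank were both at 0.961. A ratio of 2 rows shows unequal levels and does not tell which row differs.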
